A study of Drosophila melanogaster with 2 samples.

Results

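The genes scylla (scyl) and charybde (chrb) are a pair of paralogous growth regulators on chromosome arm 3L of Drosophila melanogaster, and both carried a reproducible CG3407 peak at their transcription start site (TSS). The 2 genes were chosen by the positions and scores of the peaks described here, out of 13945 protein-coding genes on the 6 chromosome arms, so the peak counts, ranks and scores below are descriptions and no test was run on them. A peak was assigned to a gene when its summit, the base of highest signal that the caller reported, lay within 500 bp of a TSS, in the gene body or within 50 kb on either side of the gene. Within 50 kb there were 15 summits for scyl and 6 for chrb.

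Both proteins are fly relatives of mammalian REDD1 (also called RTP801 or DDIT4). In flies they are induced by low oxygen and lower cell growth by damping signalling through the kinases Tor and S6k, acting upstream of the Tsc1 and Tsc2 complex. In the embryo they are needed together for head involution, the folding of the head tissue into the body, and have been tied to cell death. CG3407 encodes a zinc finger protein.

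The data are ChIP-seq peak lists, that is, genomic intervals enriched among DNA fragments recovered with a protein. They come from whole embryos of mixed sex aged 0 to 14 h, from 1 transgenic line that expresses CG3407 with green fluorescent protein at its C terminus. The 2 biological replicates form a single group, with no untreated or mutant group beside it; the labels' description calls each library an input control, whereas the assay title and antibody field name a transcription factor ChIP. Whole embryos of many stages mix all cell types, so a peak cannot be placed in a tissue or an hour, and neither control peaks nor untagged flies were analysed here.

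Each replicate and the pool of both has a list of 30000 candidate intervals. The irreproducible discovery rate (IDR) procedure, which compares peak ranks between replicates, left a set that holds 13.6% of the pooled candidates, and these were exactly the top-scoring ones. The score is the peak caller's own value on a scale that differs between lists, with a median of 262 in the IDR set and 64.0, 30.1 and 41.1 in the pooled, replicate 1 and replicate 2 lists. Scores were therefore compared within a list only, and ranks count from the highest score.

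The strongest summits of the scyl locus shared a stretch of sequence. It was searched for in these same summits, so its presence at them is a description and not a test. The highest peak lay 5875 bp upstream of the scyl TSS (rank 2 of the IDR set), and the next in score lay directly after the gene (ranks 22 and 36). In the 101 bp centred on these 3 summits, from the RefSeq copy of dm6 (plus strand, 3L:11246382-11246482, 3L:11256292-11256392 and 3L:11256871-11256971), capitals mark TGAA, then any 4 bases, then GGCAAC, then any 3 bases, then GC.
rank 2 summit: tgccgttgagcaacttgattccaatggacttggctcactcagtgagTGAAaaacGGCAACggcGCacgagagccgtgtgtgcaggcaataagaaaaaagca
rank 22 summit: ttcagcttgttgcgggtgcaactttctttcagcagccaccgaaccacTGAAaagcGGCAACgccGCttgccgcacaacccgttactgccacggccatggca
rank 36 summit: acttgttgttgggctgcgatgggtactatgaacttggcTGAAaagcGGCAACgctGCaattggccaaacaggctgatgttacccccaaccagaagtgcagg

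The longest word present in all 3 windows, on either strand, was the 8 bases CGGCAACG. It began 3 bp after the rank 2 summit, 4 bp after the rank 22 summit and 5 bp before the rank 36 summit. The windows of ranks 22 and 36, whose summits are 579 bp apart, shared an unbroken run of 17 bases. The same word lay on the minus strand 28 to 35 bp after the summit at the chrb TSS (rank 535), in the annotated 5' UTR of chrb. Aligned on that word over 22 bases, with capitals for the bases identical in the 3 scyl stretches and kept in chrb, the 4 stretches read as follows.
rank 2 summit, 3L:11246427-11246448, plus strand: gTGAAAAaCGGCAACGgcGCac
rank 22 summit, 3L:11256338-11256359, plus strand: cTGAAAAgCGGCAACGccGCtt
rank 36 summit, 3L:11256908-11256929, plus strand: cTGAAAAgCGGCAACGctGCaa
rank 535 summit at chrb, 3L:11487634-11487655, minus strand: tgGAActgCGGCAACGgcaaca

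The 3 scyl stretches were identical at 16 of 22 bases, and the chrb stretch kept 11 of those 16. In both counts the 8 bases of the word match because the stretches were aligned on it. The spaced pattern is not in the chrb stretch. The word and the spaced pattern were read from the 3 scyl windows and from the 30 highest summits of the pooled list. The forms kept were picked with their shares over all ranks in view, so these shares are descriptions only. Among the 50 highest pooled summits without those 3, the spaced pattern was in 17 of 47 windows (36.2%). It was in 7 of 450 windows at ranks 51 to 500 (1.56%), in 3 of 1500 at ranks 501 to 2000, in 2 of the 2089 IDR windows after those and in 5 of the 25911 candidates outside the IDR set (0.0193%). At ranks 31 to 50, whose sequences were not read apart from the rank 36 scyl window, left out here, it was in 3 of 19 windows (15.8%). The 18 matches in those 47 windows had midpoints at a median of 19 bp and at most 41 bp from the summit. Only matches wholly inside the 101 bp windows were counted, so these distances do not show that the pattern is centred on summits.

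**Figure D1:**
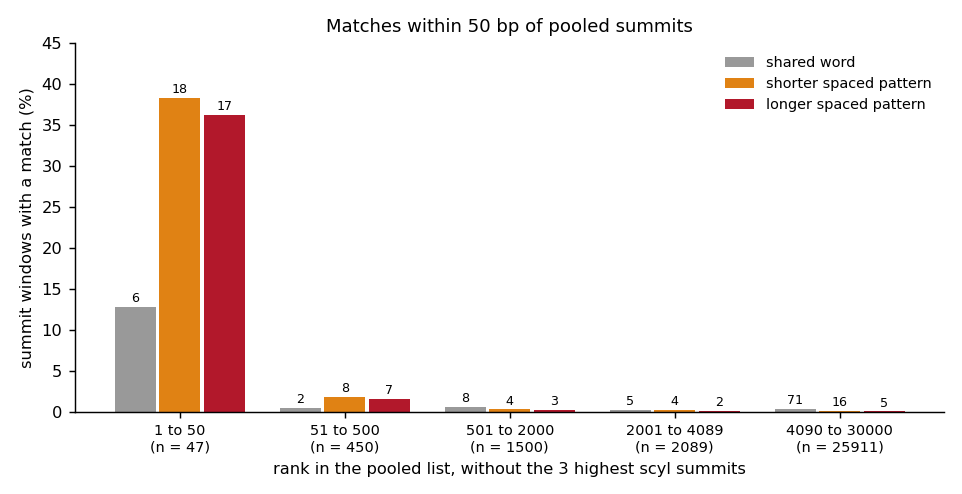
Percent of 101 bp summit windows that hold the shared 8-base word, the shorter spaced pattern (its first pieces, without the final GC) or the longer spaced pattern, by rank in the pooled list, without the 3 highest scyl summits; numbers above bars are windows with a match. The longer pattern is in 17 of 47 windows at ranks 1 to 50 and in 5 of 25911 outside the IDR set. The patterns were read from the 3 scyl windows and the 30 highest summits, so ranks 1 to 50 include source windows. At ranks 31 to 50, without the rank 36 scyl window, the longer pattern is in 3 of 19 windows.

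Over the 133.9 Mb of the 6 arms the spaced pattern occurred 65 times on either strand, and its midpoint lay within 50 bp of an IDR summit in 33 of them (50.8%). Many of these are windows the pattern was read from. Away from the 30 highest summits and the 3 scyl summits there were 47 matches, of which 15 (31.9%) lay within 50 bp of an IDR summit. Of 13945 windows of 250 bp before protein-coding TSSs, 1 held it. Within 50 kb of scyl it occurred 3 times, at the summits of ranks 2, 22 and 36, and it did not occur within 50 kb of chrb or in the 131.4 kb between the windows. The shorter form without the final GC had 1 further match near scyl, inside the gene 2007 bp after the TSS, where the nearest candidate summit was 581 bp away and outside the IDR set. Most matches of the 8-base word lay away from peaks: of its 3519 matches on the 6 arms, 26 (0.739%) had an IDR summit within 50 bp.

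The windows of the members' 21 summits were also searched for 9 sequence words, each on both strands. TATTTAC and TGTTTGC were taken from earlier results of these same data, so their shares are descriptions only. TATTTAC, which was in 8.36% of IDR windows and 3.78% of other candidates, was in 1 of 15 scyl windows and 0 of 6 chrb windows. TGTTTGC and the similar TGTTTAC were in 0 of 21. The GAGA word GAGAG was in 3 scyl and 3 chrb windows, against 10.6% of IDR windows and 12.1% of other candidates. The DRE core TATCGATA, the Zelda word CAGGTAG and the E-box CACGTG were in none. The TATA word TATAAA was in 2 scyl windows and 1 chrb window, against 22.4% of IDR windows, and ACGTG, the core of the hypoxia response element bound by HIF, was in 1 scyl window and 0 chrb windows, against 5.97%.

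The strong scyl summits lay in sequence richer in G and C than most peaks. GC content within 50 bp was 50.5% at rank 2, 58.4% at rank 22, 52.5% at rank 36 and 52.5% at rank 178, where the median was 33.7% over IDR summits and 40.6% over other candidates. The 15 scyl summits spanned 23.8% to 58.4% (median 40.6%). The chrb TSS summit was at 52.5% and the scyl TSS summit at 46.5%.

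The scyl gene (FBgn0041094) occupies 3L:11252307-11256172 on the plus strand, a length of 3866 bp with 1 TSS and 1 intron of 742 bp. The IDR peak at its TSS covered 3L:11252217-11252428, with the summit 13 bp inside the gene, a score of 375 and rank 1133. In the replicate 1 list the summit was 36 bp inside the gene with a score of 134.8 and rank 1436, and in the replicate 2 list it was 10 bp before the TSS with a score of 257 and rank 854. Both replicates thus placed a candidate at the start, on either side of the first base. Of 1964 protein-coding genes with an IDR summit within 500 bp of a TSS, which are 14.1% of all, 670 (34.1%) had a score at or above that of scyl. The intron held no IDR summit.

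The chrb gene (FBgn0036165) occupies 3L:11487550-11499055 on the plus strand, 11506 bp long, with TSSs 6321 bp apart. The peak at its first TSS covered 3L:11487514-11487733, with the summit 62 bp inside the gene, a score of 561 and rank 535. The replicates differed here: the summit within 100 bp scored 119.7 in replicate 1 (rank 1753) and 454.8 in replicate 2 (rank 273). The ratio of the ranks was 6.42, where the median over 3787 IDR peaks with a candidate summit within 100 bp in both replicates was 1.38, and 26 of them (0.687%) had a ratio at least as large. In the pooled list 328 of 1964 genes with a TSS summit (16.7%) scored at or above chrb. Without replicate 2 the highest summit near chrb was another, at rank 1723, and without replicate 1 the TSS summit was the highest, at rank 273.

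At the second chrb TSS no IDR or pooled summit lay within 500 bp, and each replicate list had 1 low candidate there, at rank 16038 in replicate 1 and rank 10967 in replicate 2. The first intron (3L:11488602-11493870, 5269 bp) held a weaker IDR peak, 4444 bp after the first TSS and 1877 bp before the second. Its score was 207 and its rank 2884, with rank 3197 in replicate 1 and rank 2567 in replicate 2. With the TSS peak this gave chrb 2 summits in its body, and scyl had its TSS summit only, where 10.6% of protein-coding genes had any summit in the body.

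The promoters are printed because a peak covered each start. They are the 250 bases before the first TSS on the plus strand of dm6, with capitals for the GAGA word GAGAG, the hypoxia core ACGTG and the TATA word TATAAA on either strand.
scyl promoter, 3L:11252057-11252306: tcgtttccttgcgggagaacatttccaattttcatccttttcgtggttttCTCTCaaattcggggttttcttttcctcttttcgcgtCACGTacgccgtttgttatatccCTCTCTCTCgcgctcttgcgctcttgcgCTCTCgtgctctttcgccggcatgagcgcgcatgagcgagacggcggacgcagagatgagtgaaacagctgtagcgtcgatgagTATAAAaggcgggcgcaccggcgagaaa
chrb promoter, 3L:11487300-11487549: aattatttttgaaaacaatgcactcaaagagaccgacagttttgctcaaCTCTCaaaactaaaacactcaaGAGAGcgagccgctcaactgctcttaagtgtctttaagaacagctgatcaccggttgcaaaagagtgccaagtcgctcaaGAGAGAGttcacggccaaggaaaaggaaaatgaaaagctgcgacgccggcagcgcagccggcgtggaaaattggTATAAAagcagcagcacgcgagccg

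Both promoters held TATAAA at a like place, with its first base 28 bases before the scyl TSS and 25 bases before the chrb TSS. That word was somewhere in 43.0% of the 250 bp windows before protein-coding TSSs. GAGAG had 5 matches before scyl and 4 before chrb, counting overlapping ones, and was in 25.7% of such windows. ACGTG was before scyl only, 163 bases from the TSS, and was in 17.1% of windows. Neither promoter held the spaced pattern.

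The largest CG3407 signal near either gene was away from the scyl promoter. The rank 2 peak covered 3L:11245891-11246924, 1034 bp, with its summit in intergenic sequence 521 bp before the start of lncRNA:CR44713. Its pooled score of 17753 was 67.7 times the IDR median. The replicate multiples that follow use medians of full lists of 30000 candidates, so they are not comparable with the pooled one. The summit was at the same base in both replicates, at rank 2 in each, with a score of 6864 in replicate 1 (228 times that list's median) and 10871 in replicate 2 (265 times). Above it was a peak in spen (23642), which encodes an RNA-binding transcriptional regulator, and below it came peaks at lncRNA:Vinr (10681), at Sdc, the syndecan gene (8635), and at SoxN, a Sox transcription factor gene (7980). The score fell 1.66-fold from rank 2 to rank 3.

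Directly after scyl, the rank 22 peak (3L:11256035-11256648, score 2974) had its summit 170 bp past the gene's end and the rank 36 peak (3L:11256590-11257182, score 2342) had its summit 749 bp past it. Their intervals overlap, so they may be counted as 1 region. Their ranks were 19 and 30 in replicate 1 and 21 and 35 in replicate 2, with summits moved by at most 4 bp. Rank 178 (3L:11247319-11247797, score 950) lay 4677 bp before the scyl TSS, with rank 320 in replicate 1 and rank 132 in replicate 2. Each of these was far above the TSS peak of scyl in every list.

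**Figure D2:**
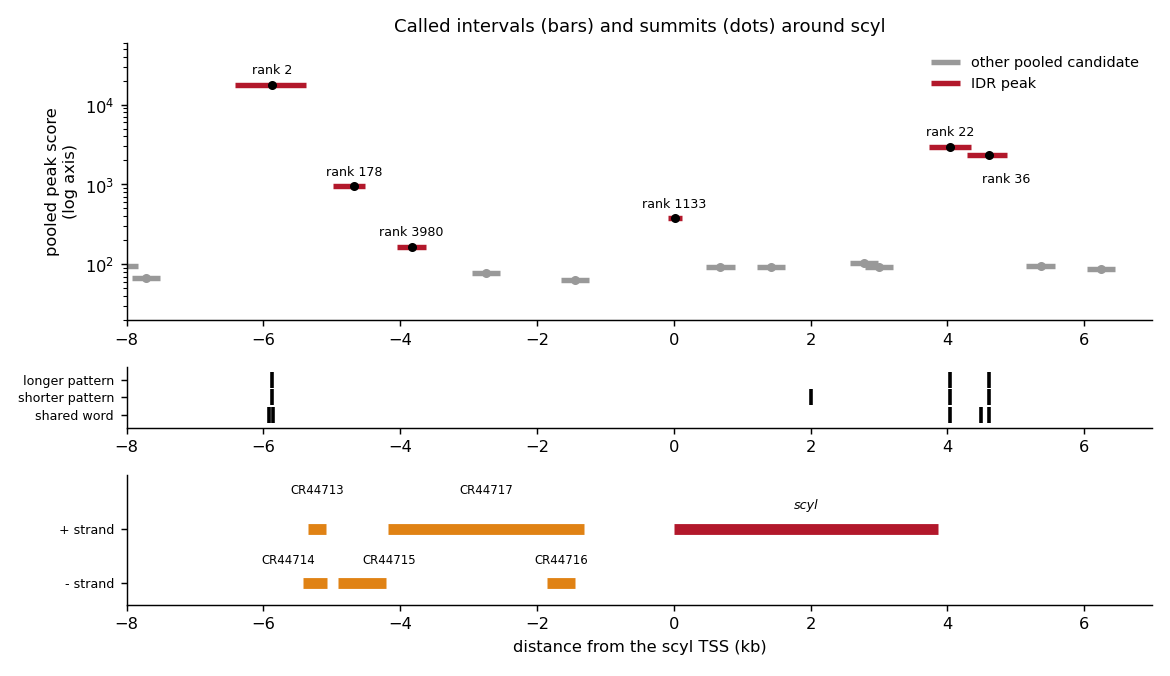
Pooled candidate intervals around scyl, with pooled score on a log axis against distance from the scyl TSS in kb, matches of the shared word and spaced patterns, and genes on each strand (red, scyl; orange, lncRNA genes). The peaks of ranks 2, 22 and 36, which are among those the longer pattern was read from, each sit on a match of it. The TSS peak at rank 1133 does not.

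In all, 15 IDR summits in 13 separate regions lay within 50 kb of scyl: 5 upstream, 1 in the gene and 9 downstream. Among protein-coding genes the median was 4 and the highest 22, and 0.853% had at least 15. With 3 summits among the 50 highest, scyl was 1 of 45 genes (0.323%) with at least as many, in 5 loci named for spen, Su(z)2, scyl, gpp and Smr; neighbouring genes share these summits, among them Dyro and CG42671 beside scyl. By class, 6 of the 15 were within 500 bp of some TSS and 9 were intergenic. Their scores ran from 165.8 to 17753 with a median of 346, and all 15 were also among as many of the highest candidates of each replicate as the IDR set holds.

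The other scyl summits were weaker. Downstream were ranks 2633 and 826 at 8129 and 9374 bp after the TSS, with scores of 221 and 448. Farther out were rank 1735 (score 291) 796 bp downstream of the TSS of lncRNA:CR44720 and past its end, rank 3552 (179) 2013 bp downstream of the TSS of lncRNA:CR45404, and ranks 786 and 3156 (458 and 194.8) at 418 and 631 bp before the TSS of Dyro. Rank 3007 (201) was 51718 bp from the scyl TSS, nearest the TSS of CG7573. Upstream, rank 1282 (346) lay 472 bp before a TSS of CG42671 and rank 2908 (206) lay 101 bp before the TSS of Plod, a gene for a collagen-modifying lysyl hydroxylase. None of these reached the 500 highest.

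**Figure D3:**
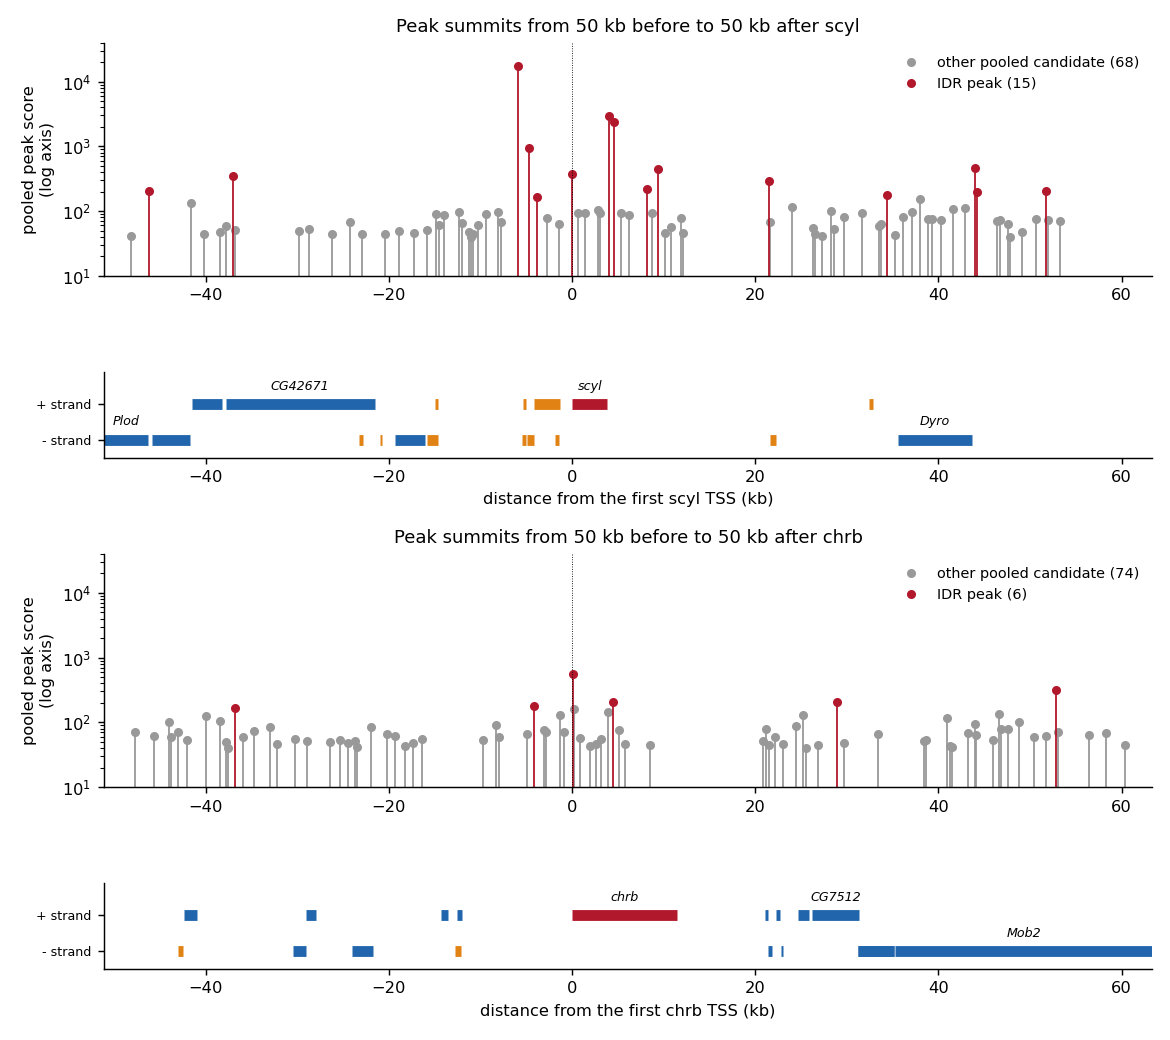
Pooled score on a log axis against distance from the first TSS in kb for IDR peaks (red) and other pooled candidates (grey) within 50 kb of scyl and chrb, with genes on each strand below (red, scyl or chrb; blue, other protein-coding; orange, non-coding). Around scyl 15 of 83 candidates are IDR peaks, up to 17753, and around chrb 6 of 80, up to 561.

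The candidate lists were nearly as dense around chrb as around scyl, and the difference lay in the scores. There were 83 pooled candidates in the 103.9 kb of the scyl window, of which 18.1% were in the IDR set, and 80 in the 111.5 kb of the chrb window, of which 7.5% were, where the share over the whole list was 13.6%. The replicate lists held 79 and 91 candidates near scyl and 74 and 80 near chrb. Inside the gene bodies, scyl held 5 pooled candidates and chrb 11.

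The 6 chrb summits had scores from 163.8 to 561 with a median of 206, and none was among the 500 highest; 28.7% of protein-coding genes had at least 6 summits within 50 kb. Besides the TSS and intron peaks, rank 3499 (score 181) lay 4113 bp before the first TSS and rank 4041 (163.8) lay 36818 bp before it, nearest CG7557. Downstream, rank 2934 (205) was in an intron of CG7512 and rank 1531 (315) in an intron of Mob2, which encodes an adaptor of NDR family kinases. By nearest summit within 100 bp, 4 of 6 were among as many of the highest candidates of each replicate as the IDR set holds. By overlap of intervals the count was 5. By nearest summit, rank 3499 fell to 12286 in replicate 1 and rank 4041 to 5044 in replicate 2. The peaks ranked directly above and below the chrb TSS peak, with scores from 558.5 to 561.9, were nearest to CG5103, crp, Irk1, CG13101, Eip74EF and sqh. The summit nearest to Irk1 was as near to a TSS of CG46310.

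**Figure D4:**
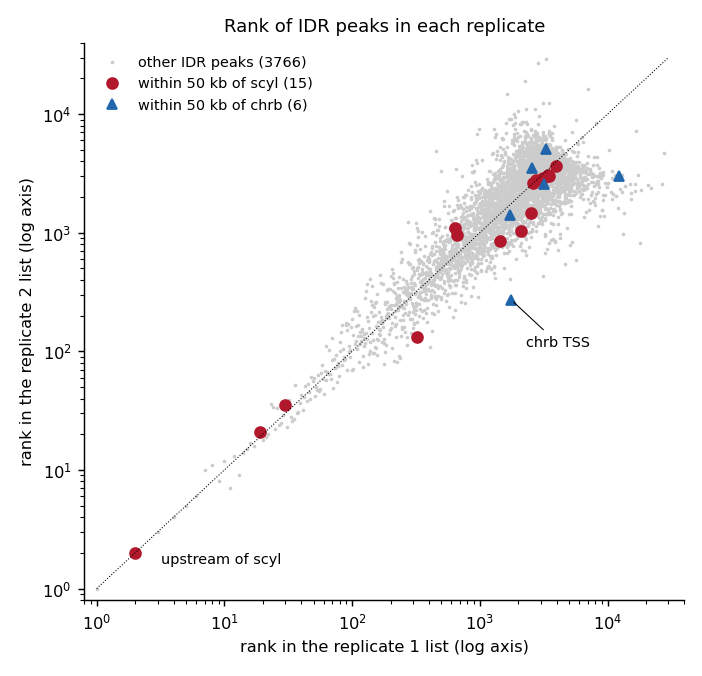
Rank of each IDR peak in the replicate 2 list against the replicate 1 list, both log axes, by nearest candidate summit within 100 bp, for peaks within 50 kb of scyl (red circles), of chrb (blue triangles) and elsewhere (grey); the dotted line marks equal ranks. The highest scyl peak is at rank 2 in both, and the chrb TSS peak is at rank 1753 in replicate 1 and 273 in replicate 2.

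**Figure D5:**
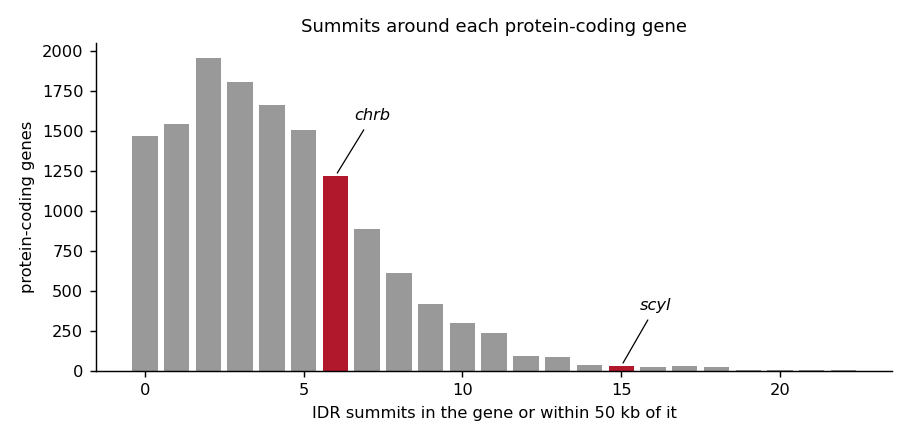
Number of protein-coding genes by the count of IDR summits in the gene or within 50 kb of it, with the bars that hold scyl (15) and chrb (6) in red. Most genes have fewer than 6, and scyl lies in the thin upper tail, where 0.853% of genes have at least 15.

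Between the end of scyl and the start of chrb, 231.4 kb, there were 32 IDR summits, or 13.8 per 100 kb, where the 6 arms held 3.05 per 100 kb. Of these, 21 lay in the 131.4 kb between the windows, 16 of them intergenic and 4 within 500 bp of a TSS. The highest there was rank 260 (score 800), in an exon of lncRNA:CR44363.

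Of the 10 lncRNA genes within 50 kb of scyl, 3 had an IDR summit within 500 bp of their TSS, where 6.94% of 1944 lncRNA genes had one. These were lncRNA:CR44714, lncRNA:CR44715 and lncRNA:CR44717, which start between 4178 and 5075 bp before the scyl TSS and lie close enough to count the same summits: rank 178 counted for all 3, and rank 3980 for lncRNA:CR44715 and lncRNA:CR44717. Rank 178 lay in the body of lncRNA:CR44715 and 398 bp before the start of lncRNA:CR44714. Rank 3980 (score 165.8), with rank 3983 in replicate 1 and rank 3679 in replicate 2, lay 343 bp into lncRNA:CR44717. The 500 bp rule did not assign the rank 2 peak to any gene, since lncRNA:CR44713 starts 521 bp from it. No TSS summit was assigned to lncRNA:CR44716, lncRNA:CR44718, lncRNA:CR44719, lncRNA:CR44720, lncRNA:CR45404 or lncRNA:CR45405, nor to lncRNA:CR44549, the 1 such gene near chrb. No function of these lncRNAs is annotated in the files used here.

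Other protein-coding genes had a TSS summit in 3 of 6 near scyl (Plod, CG42671 and Dyro) and in 1 of 15 near chrb (Mob2). The highest Mob2 TSS summit, rank 1579, lay 354 bp before a start beyond the window. No Mob2 TSS summit was among the 6 chrb summits. The share over all protein-coding genes was 14.1%, and counts this small cannot be read against it. Of the 5 annotated transposable elements in the 2 windows, 4 held no candidate in the pooled list, among them the 9101 bp roo copy directly after chrb. How reads from repeated copies were treated was not stated in the labels, so an absence there says little.

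Genes of the TOR and insulin pathway, of hypoxia and of cell death, themes named above for scyl and chrb, were taken from lists. Whether these genes act with scyl or chrb was not tested. Of 31 genes of the TOR and insulin pathway, 10 (32.3%) had an IDR summit within 500 bp of a TSS, against 14.1% of all protein-coding genes; the lists were chosen with results of these data known, and no test was run. On the growth-restraining side these were Thor, the 4E-BP translation repressor (score 339, rank 1320), foxo, the transcription factor held back by insulin signalling (300.2, rank 1661), Sesn, the sestrin gene (1038, rank 150), and REPTOR, a transcription factor active when Tor is low (880.6, rank 207). The Sesn summit was as near to the TSS of CG46429. On the activating side were InR, the insulin receptor (185.7, rank 3381), Pi3K21B, the adaptor of PI3-kinase (415.6, rank 936), Pdk1, a kinase that activates Akt (266, rank 1999), Rheb, the GTPase that turns on Tor (192.7, rank 3198), and melt, a membrane-associated modulator of Tor and foxo (343, rank 1298), with 14-3-3zeta, a phosphoprotein-binding adaptor (217, rank 2697). The Pdk1 summit was nearer to lncRNA:CR45805 and the Rheb summit nearer to CG2931. Tsc1, gig (the fly Tsc2), Tor, raptor, S6k and Akt were among the 21 with none.

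The ranks of those 10 genes in replicates 1 and 2 varied. They were 135 and 158 for Sesn, 251 and 184 for REPTOR and 3245 and 2707 for 14-3-3zeta. Thor was at 1728 and 1134, InR at 4586 and 3192 and melt at 1039 and 1768. The ranks lay farther apart for foxo (1032 and 2388), Rheb (2380 and 5649), Pi3K21B (523 and 1838) and Pdk1 (6599 and 1345).

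Among 5 hypoxia genes, 2 had a TSS summit, where 14.1% of all protein-coding genes had one. A list of 5 genes is too small to be read against that share. The 2 were Hph, the prolyl hydroxylase that marks the HIF subunit Sima for decay (214.5, rank 2742), and Ldh, lactate dehydrogenase (629.8, rank 432). The genes sima, tgo and Vhl had none. Among 10 cell death genes only hid, an inhibitor of Diap1, had one (247.8, rank 2206), and rpr, grim and skl had none. That count is near the 14.1% of all protein-coding genes, and it was 2 with either replicate left out, by overlap of intervals or within 1000 bp, 4 with the set extended to 2 times its size, and 0 within 250 bp or among the higher-scoring 50% of IDR peaks.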

How the data were processed

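The files are interval lists (narrowPeak) on dm6. Per the file headers, the authors derived candidate lists from alignments and 1 control file and filtered them into the IDR set; the score is the deposited signal value of each interval, one value per peak on the scale of its own list. Not given in the sources used here: aligner, peak caller, IDR cut-off and read depth. Gene models are those of Ensembl 115 and bases those of the RefSeq genome of the same assembly, in which scyl and chrb have the same coordinates. Summits were converted to 1-based positions and counted with Python 3.11.15, pandas 2.3.3 and numpy 2.4.6; counting was tested on simulated data. Replicate ranks are those of the nearest candidate summit within 100 bp, and for the listed pathway genes those of the highest-scoring overlapping candidate. Words were searched on both strands in 101 bp windows. Named genes are scyl, chrb, the lncRNA genes near them, the genes with the TSS nearest to a summit, the 3 peaks on either side in rank and listed genes with a TSS summit; others named were chosen after their values were seen. Members, lists and words were chosen with earlier results of these data known. With pooled lists and 1 group, no test and no SD was computed.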

Additional observations from a re-analysis of the deposited data

How the results depend on the processing

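Of 69 values recomputed under 10 alternatives for 11 counts or ranks, 46 stayed within 1.5 times the reported value and 23 moved beyond it. The TSS summit of scyl and its rank 2 summit were kept under every alternative run on them. Using the list of 1 replicate in place of both, the highest rank near chrb ranged from 273 (without replicate 1) to 1723 (without replicate 2), the gene body count of scyl from 0 to 1 (its TSS summit moves to just before the start in replicate 2), and the cell death count was 2 in both. With only the higher-scoring 50% of IDR peaks there were 9 summits near scyl and 2 near chrb, 1 in the body of chrb, 1 hypoxia gene and 0 cell death genes. With the set extended down the pooled list to 2 times its size there were 16 near chrb, 2 at its TSSs, 4 in its body, 2 in the body of scyl and 4 cell death genes. Within 25 kb scyl had 9 summits, and within 100 kb scyl had 26 and chrb 23, with rank 260 the highest near chrb because the wider span takes in summits between the genes. The cell death count was 0 within 250 bp of a TSS and 2 within 1000 bp. By overlap of intervals it was 2, and the body of scyl held 2. No paired analysis was possible because the 2 replicates form 1 group and no result comes from a test. Matching replicates by nearest summit was added after seeing the data. Read depth, which limits how far weak summits can be ranked, is unknown.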
